A study of Homo sapiens with 6 samples.

Results

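Nuclear lamins are intermediate filament proteins that line the inner face of the nuclear envelope, and the lamin B receptor is an inner nuclear membrane protein that tethers heterochromatin to that lining. Proteins of the high mobility group bind DNA with little sequence preference and bend or open chromatin, the HMGA proteins through AT-hooks in the minor groove and the HMGB proteins through HMG boxes. Loss of lamin B1, of the lamin B receptor and of nuclear HMGB proteins is widely used as a marker of senescent cells, and HMGA proteins have been found in senescent heterochromatin. The 9 genes described here are the 3 lamin genes *LMNA*, *LMNB1* and *LMNB2*, the lamin B receptor gene *LBR*, the HMGA genes *HMGA1* and *HMGA2*, and the HMGB genes *HMGB1*, *HMGB2* and *HMGB3*. They were chosen by symbol, each matched 1 Ensembl identifier, and they are 9 of the 58336 genes in the count table.

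A2780 is an established human ovarian cancer cell line. Cultures received DMSO vehicle or 6 µM TH588, a first-generation inhibitor of the nucleotide-pool enzyme MTH1 that also stalls cells in mitosis, and RNA was collected at 48 h. The sample labels give this time for TH588 only. Polyadenylated RNA from 3 biological replicates (A, B and C) of each treatment was sequenced, which gave 6 libraries. One cell line, one dose and one time were thus compared, and in bulk RNA fewer cells of a type and less RNA per cell cannot be told apart.

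A DMSO library held 83144642 to 98176722 counts, and a TH588 library 28537837 to 99074175, with TH588 replicate A the shallowest. The small nucleolar RNA *SNORD3A* took 21.9% of the counts of that library and 7.68% to 13% elsewhere. Among markers listed for the line, the mesenchymal marker *VIM* stood at 3329 to 4048 CPM (counts scaled to a common library size with TMM factors). The 10 listed markers were ovarian and epithelial genes together with the mesenchymal *VIM* and *CDH2*. Of the 10, 4 could be tested, of which 2, both epithelial, were higher and 1, *CDH2*, was lower. *EPCAM* was low but present and rose from 0.644 ± 0.212 to 4.74 ± 0.35 CPM (SD, n = 3 each; log2 fold change 2.87, adjusted p = 8.23e-07), and *KRT18* rose from 3.56 ± 0.373 to 6.54 ± 0.435 CPM (0.88, adjusted p = 0.00017). *CDH2* fell by 0.37 (adjusted p = 0.0146), a call lost without DMSO replicate A, DMSO replicate C or TH588 replicate C. The other 6 (*PAX8*, *KRT8*, *KRT19*, *WT1*, *MUC16* and *CDH1*) had at most 15 counts in a library. The 6 leukocyte markers summed to 0.754 to 1.31 CPM with DMSO and 1.05 to 1.38 CPM with TH588, with *CD3E* and *FCGR3A* at 0. Among the 6, 2 were tested and 1, *CD14*, was higher. It rose at a very low level, from 0.0649 ± 0.0254 to 0.336 ± 0.0688 CPM (log2 fold change 2.30, adjusted p = 0.00393). The 8 fibroblast and endothelial markers summed to 30.8 to 34.6 CPM with DMSO and 44.1 to 49.8 CPM with TH588. Of these, 5 were tested and 2 (*COL1A2* and *PDGFRA*) were higher, while the endothelial markers *PECAM1*, *CDH5* and *VWF* had at most 11 counts in a library. The part of these markers in the results below was not tested.

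After TH588, *LMNA* rose and the other 8 genes fell. All 9 passed the test across all genes, edgeR's quasi-likelihood test at a Benjamini-Hochberg adjusted p under 0.05, and in none of the 9 did the 3 TH588 libraries overlap the 3 DMSO libraries. Over all 15844 genes tested, 24.2% were called higher and 25.3% were called lower, and the groups did not overlap for 57.7%. The 9 genes were abundant, and among the 4090 genes at least as abundant as *HMGB3*, the least abundant of them, 46.5% were called lower and 18.5% higher. The median log2 fold change was -0.81 over the 9 genes and 0.019 over all genes tested. Values below are normalized counts in CPM. Each log2 fold change is TH588 over DMSO and is given with its standard error (SE) and the adjusted p of edgeR's test.

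**Figure D1:**
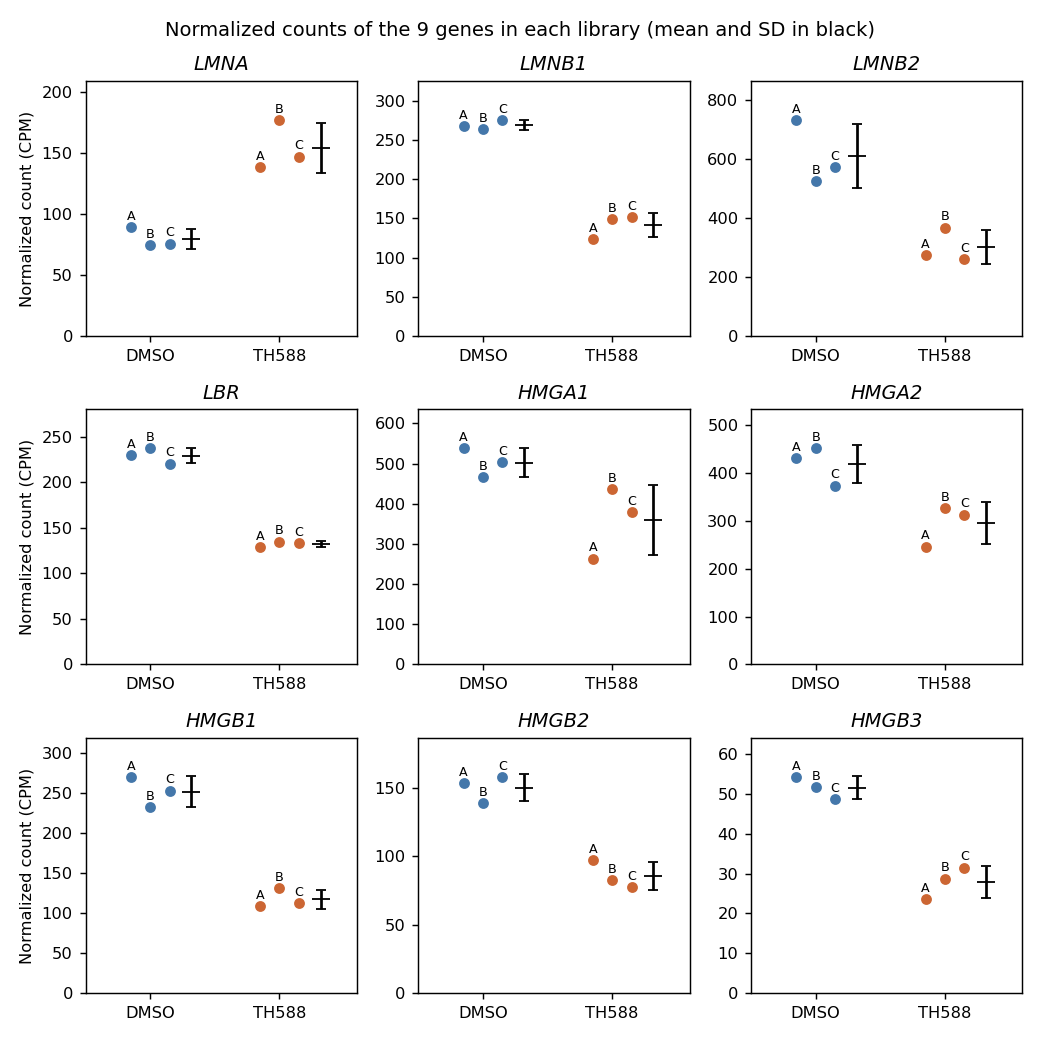
Normalized counts in CPM on a linear axis from 0, one panel per gene, with 3 DMSO libraries in blue, 3 TH588 libraries in orange, the replicate letter above each point, and the mean and SD in black. *LMNA* is the only panel in which the TH588 points lie above the DMSO points, at 138 to 177 CPM against 74.5 to 89.2 CPM.

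*LMNA* (ENSG00000160789) encodes lamins A and C, the A-type lamins of differentiated cells (GRCh38 coordinates, here and below: chromosome 1, bases 156082573 to 156140089). It was at 89.2, 74.5 and 75.8 CPM with DMSO (replicates A to C in that order, here and below) and at 138, 177 and 147 CPM with TH588. Every TH588 library thus lay above every DMSO library, with TH588 replicate B the highest. The mean went from 79.8 ± 8.17 to 154 ± 20.3 CPM (SD, n = 3 each), a 1.93-fold rise, and the log2 fold change was 0.95 (SE 0.11, adjusted p = 1.58e-05). The counts are per gene, so lamin A and lamin C transcripts were not separated.

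Both B-type lamins, which stay attached to the membrane through their farnesyl group, went the other way. *LMNB1* (ENSG00000113368; chromosome 5 from 126776623 to 126837020) was at 267, 264 and 276 CPM with DMSO. With TH588 it was at 123, 149 and 151 CPM, and replicate A was the lowest. Its log2 fold change was -0.93 (SE 0.09, adjusted p = 4.97e-06), a 1.9-fold fall, and the SD was 6.05 CPM with DMSO and 15.5 CPM with TH588. *LMNB2* (ENSG00000176619; chromosome 19 from 2427638 to 2456996), the other B-type lamin, varied more between libraries, at 732, 525 and 571 CPM with DMSO and 274, 367 and 261 CPM with TH588. DMSO replicate A stood above the other DMSO libraries, and TH588 replicate B above the other TH588 libraries, without overlap between the treatments. Its log2 fold change was -1.02 (SE 0.14, adjusted p = 9.43e-05). Exons of *TIMM13* and *MIR7108* overlap 5.58% of the exon bases of *LMNB2*.

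*LBR* (ENSG00000143815; chromosome 1 from 225401502 to 225428925) encodes a receptor for B-type lamins and heterochromatin that is also a sterol reductase. It was at 230.2, 237 and 220.4 CPM with DMSO and 129, 135 and 133 CPM with TH588. The 3 libraries of each treatment lay close together, with an SD of 8.43 CPM with DMSO and 3.26 CPM with TH588. The log2 fold change was -0.80 (SE 0.07, adjusted p = 3.53e-06), so *LBR* had the smallest standard error of the 9 genes.

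The counts of the lamin genes were also set against each other within a library, which removes the scaling between libraries. The ratio of *LMNB1* to *LMNA* counts was 3, 3.54 and 3.64 with DMSO and 0.892, 0.844 and 1.03 with TH588. The 3 values with TH588 all lay far below those with DMSO. *LMNA* has the longer exons, so these ratios compare treatments and not the levels of the 2 genes. The mean log2 ratio went from 1.76 ± 0.15 to -0.12 ± 0.15 (SD, n = 3 each), a difference of -1.88, and the 9 differences between a TH588 and a DMSO library ran from -2.11 to -1.54. For *LMNB2* against *LMNA* the difference was -1.97 (range over library pairs -2.21 to -1.77), and for *LBR* against *LMNA* it was -1.74 (-2.06 to -1.47). Each of these 3 ratios separated the treatments without overlap, with p = 0.1 by an exact two-sided permutation test, the smallest value that 3 libraries against 3 can give, and 0.175 after Benjamini-Hochberg adjustment over 7 ratios. The ratio of *LMNB1* to *LMNB2* overlapped between the treatments. Its log2 difference was 0.09, with pairs from -0.30 to 0.66 (exact permutation p = 0.8, adjusted p = 0.933), so the B-type lamins could not be told apart in how far they fell.

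**Figure D2:**
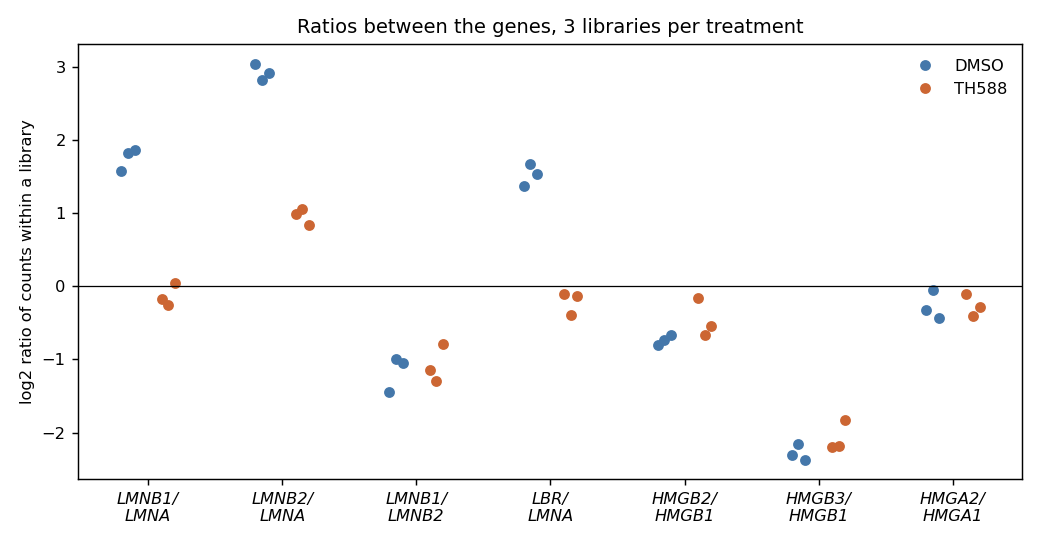
Log2 ratio of raw counts of 2 genes within a library for the 7 gene pairs compared, with 3 DMSO libraries in blue and 3 TH588 libraries in orange; 0 is equal counts. The 3 ratios against *LMNA* differ by -1.97 to -1.74 between treatments without overlap, while *LMNB1*/*LMNB2*, *HMGB3*/*HMGB1* and *HMGA2*/*HMGA1* overlap.

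Divided by exon length, *LMNA* made up 5.65% to 5.93% of the summed lamin level with DMSO and 18.9% to 19% with TH588. The summed level of the 3 lamin genes went from 198 ± 21.2 to 116 ± 15.7 RPKM (CPM divided by exon length in kilobases; SD, n = 3 each). On this scale *LMNB2* was the highest lamin gene in both treatments, at 112 ± 20 RPKM with DMSO and 55.4 ± 10.6 RPKM with TH588. *LMNA* was at 11.4 ± 1.17 RPKM with DMSO, the lowest of the 9 genes there, although its libraries overlapped those of *HMGB3*, the next in order. With TH588 it was at 22.1 ± 2.91 RPKM and overlapped its neighbours *LBR* and *HMGA2*. *HMGA1* was the highest of the 9 genes in both treatments, at 216 ± 15.2 and 154 ± 37.8 RPKM, and did not overlap *LMNB2*, the second. These levels divide by all annotated exon bases of a gene, so a gene such as *HMGA2* with 15403 such bases is set low if its cells use a shorter transcript.

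The HMGA genes had the smallest point estimates, although differences between families were not tested. *HMGA1* (ENSG00000137309; chromosome 6 from 34236873 to 34246231), which encodes the main HMGA protein of proliferating and tumor cells, was at 538, 467 and 503 CPM with DMSO and 263, 436 and 379 CPM with TH588. TH588 replicate A was far below the other TH588 libraries, and the highest TH588 library was just below the lowest DMSO library. The log2 fold change was -0.48 (SE 0.15, adjusted p = 0.0157). Without TH588 replicate A it was -0.29 (adjusted p = 0.0161 by the same test), without DMSO replicate A it no longer passed the threshold (-0.41, adjusted p = 0.0573), and with library size only in place of TMM it did not pass either (-0.36, adjusted p = 0.143). *HMGA2* (ENSG00000149948; chromosome 12 from 65824131 to 65966295), an oncofetal gene silenced in most adult tissues by let-7 miRNAs, was at 431, 452 and 374 CPM with DMSO and 246, 328 and 313 CPM with TH588. TH588 replicate A was again the lowest, and the treatments did not overlap. Its log2 fold change was -0.50 (SE 0.11, adjusted p = 0.00266), and -0.39 (adjusted p = 0.0553) with library size only. Exons of *HMGA2-AS1* overlap 2.49% of its exon bases.

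The ratio of *HMGA2* to *HMGA1* counts ranged from 0.742 to 0.967 with DMSO and from 0.751 to 0.936 with TH588. The log2 difference was 0.00, with library pairs from -0.36 to 0.33 (exact permutation p = 1), so no difference between these falls was detectable at this number of libraries. *HMGA2* made up 11.2% ± 1.38 of the summed HMGA level per length with DMSO and 11.2% ± 1.1 with TH588 (SD, n = 3 each).

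All 3 HMGB genes fell as well. *HMGB1* (ENSG00000189403; chromosome 13 from 30456704 to 30617597) encodes the most abundant HMGB protein of most cells, which bends DNA in the nucleus and acts as an alarmin once released. It was at 269.8, 232 and 253 CPM with DMSO and 109, 131 and 112 CPM with TH588. Each TH588 library lay under each DMSO library by a wide margin. The mean went from 251 ± 19.1 to 117 ± 12 CPM (SD, n = 3 each), a 2.14-fold fall with a log2 fold change of -1.10 (SE 0.09, adjusted p = 1.76e-06). *HMGB2* (ENSG00000164104; chromosome 4 from 173331695 to 173335125), whose expression follows proliferation, was at 154, 139 and 158 CPM with DMSO and 97.4, 82.9 and 77.2 CPM with TH588. Here TH588 replicate A was the highest of its group, the reverse of its place for *HMGA1*. The log2 fold change was -0.81 (SE 0.10, adjusted p = 2.55e-05). *HMGB3* (ENSG00000029993; chromosome X from 150980509 to 150990775), a family member best known from embryonic and blood stem cells, was at 54.3, 51.8 and 48.8 CPM with DMSO and 23.6, 28.7 and 31.5 CPM with TH588. Its log2 fold change was -0.88 (SE 0.11, adjusted p = 2.57e-05).

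The ratio of *HMGB2* to *HMGB1* counts was 0.569, 0.601 and 0.627 with DMSO, and it was 0.897, 0.634 and 0.69 with TH588. The treatments just failed to overlap, and TH588 replicate A held the widest gap. The log2 difference was 0.29, with library pairs from 0.02 to 0.66 (exact permutation p = 0.1, adjusted p = 0.175 over 7 ratios), and it was 0.14 without TH588 replicate A. For *HMGB3* against *HMGB1* the difference was 0.21, with pairs from -0.04 to 0.54 (exact permutation p = 0.3, adjusted p = 0.42). The summed HMGB level per length went from 99.7 ± 5.7 to 53.1 ± 2.53 RPKM (SD, n = 3 each), and *HMGB2* made up 53.2% to 63.7% of it in a library. That share depends on the exon length used, 7723 bases for *HMGB1* and 2775 for *HMGB2*. In raw counts *HMGB1* was above *HMGB2* in each library. The levels per length also leave out reads counted on *HMGB1* pseudogenes, so that of *HMGB1* is a lower estimate if such reads came from it. With pseudogene counts added to their parent gene, an alternative chosen after seeing the data, *HMGB2* made up 46.9% to 58.3% and *HMGB1* 31.7% to 41.3%.

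*HMGB1* has many processed pseudogenes, intronless copies of its transcript that can take up its reads. The table held 48 rows named as *HMGB1* pseudogenes, and together they carried 26.3% to 30.1% of the counts of *HMGB1* and these rows in a library. Nearly all of those counts lay on *HMGB1P5* (chromosome 3 from 22381819 to 22382929) and *HMGB1P6* (chromosome 15 from 71164770 to 71165415), which are named here because they had the most counts. *HMGB1P5* was at 53.4, 42.8 and 60.6 CPM with DMSO and 18.5, 24.8 and 20.4 CPM with TH588, a log2 fold change of -1.29 (adjusted p = 9.34e-06). *HMGB1P6* was at 49.9, 37.4 and 45.5 CPM with DMSO and 18.2, 25.5 and 17.8 CPM with TH588, a log2 fold change of -1.10 (adjusted p = 5.46e-05). Reads from these copies and from *HMGB1* cannot be told apart in these counts. With all pseudogene counts added to their parent gene, the log2 fold change of *HMGB1* was -1.12 (adjusted p = 2.89e-06), against -1.10 without. The 8 *HMGA1* pseudogene rows carried 0.285% to 0.76% of the counts of that family, and the 29 *HMGB3* rows 0.904% to 1.79%.

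**Figure D3:**
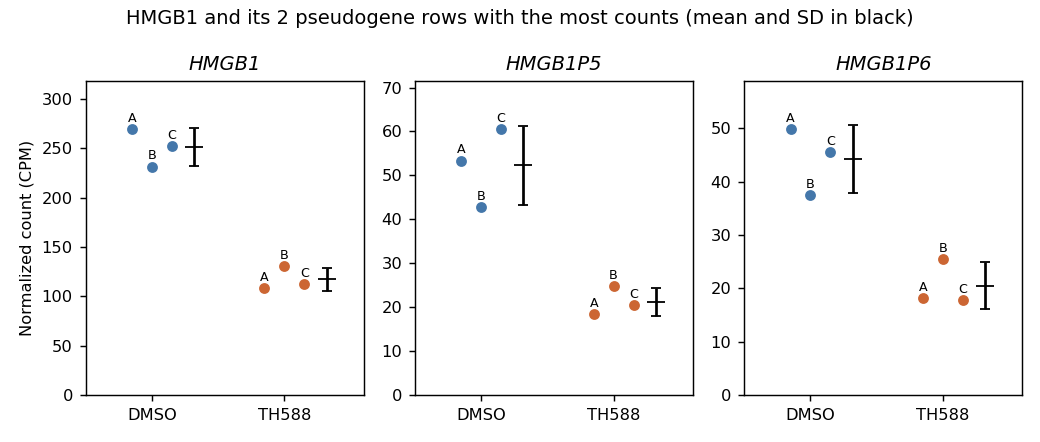
Normalized counts in CPM, from 0, of *HMGB1* and of the 2 pseudogene rows named after it that had the most counts, by library, with the mean and SD in black. All 3 panels show the TH588 points (orange) below the DMSO points (blue), and the pseudogene rows stand at 17.8 to 60.6 CPM against 109 to 269.8 CPM for *HMGB1*.

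The change of each gene kept its direction in each of 15 other fits, which changed the scaling, the filter, the test or the libraries used. *LMNA* ranged from 0.84 to 1.06, *LMNB1* from -0.97 to -0.82, *LMNB2* from -1.19 to -0.84 and *LBR* from -0.81 to -0.69 on the log2 scale. *HMGB1* ranged from -1.19 to -0.99, *HMGB2* from -0.90 to -0.72 and *HMGB3* from -0.95 to -0.77. These 7 genes passed the threshold in all 15, while *HMGA1* passed in 13 and *HMGA2* in 14.

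**Figure D4:**
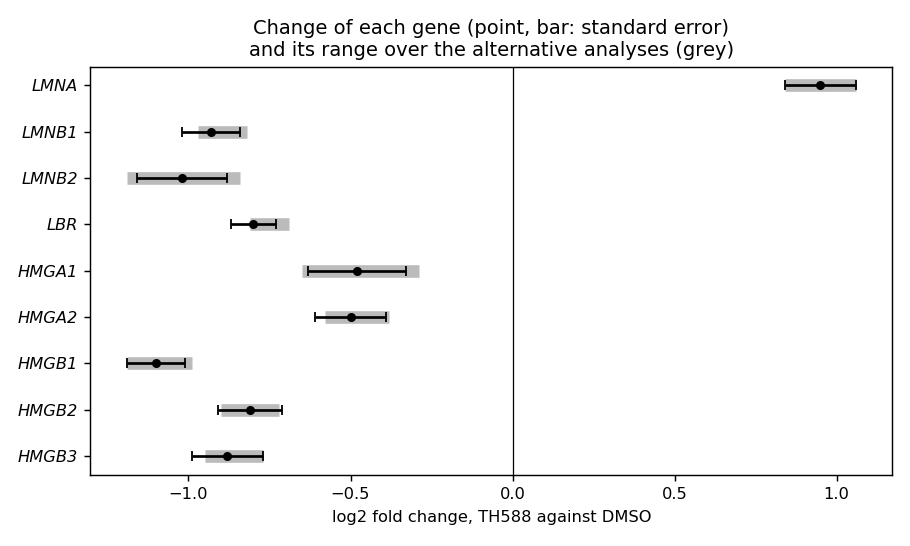
Log2 fold change of each gene after TH588 against DMSO (black point) with its standard error (black bar), and the lowest to highest value over the 15 other fits (grey band); 0 is no change. *LMNA* lies to the right of 0 at 0.95, and the other 8 genes lie between -1.10 and -0.48, with the widest band for *HMGA1*, from -0.65 to -0.29.

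Promoter sequences are shown for *LMNA*, the gene that rose, for *LMNB1*, and for *HMGB1* and *HMGB3*, whose windows held the most matches. RefSeq windows of GRCh38.p14 covered 250 bases before to 50 after a start site and were at hand for 7 of the 9 genes, with 14 windows in all; none was used for *HMGB2* and *HMGA2*. They were searched on both strands for the CCAAT box (CCAAT), the cell cycle homology region bound by the DREAM complex (TTTGAA or TTCGAA), and E2F-like sites (TTTGGCGC, TTTCCCGC, TTTGGCGG or TTTCGCGC). The 200 bases before the start site are printed 5′ to 3′ on the gene's strand, with matches in capitals.

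LMNA (chr1:156082373-156082572, plus strand): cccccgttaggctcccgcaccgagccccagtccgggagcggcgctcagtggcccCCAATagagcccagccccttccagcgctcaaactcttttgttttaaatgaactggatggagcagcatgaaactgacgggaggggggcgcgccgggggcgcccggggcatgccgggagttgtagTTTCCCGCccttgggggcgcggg
LMNB1 (chr5:126776423-126776622, plus strand): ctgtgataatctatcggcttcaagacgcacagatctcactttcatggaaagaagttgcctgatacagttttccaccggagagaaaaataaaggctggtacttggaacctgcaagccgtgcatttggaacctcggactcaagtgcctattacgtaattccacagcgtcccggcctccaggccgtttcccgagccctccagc
HMGB1 (chr13:30465937-30466136, minus strand): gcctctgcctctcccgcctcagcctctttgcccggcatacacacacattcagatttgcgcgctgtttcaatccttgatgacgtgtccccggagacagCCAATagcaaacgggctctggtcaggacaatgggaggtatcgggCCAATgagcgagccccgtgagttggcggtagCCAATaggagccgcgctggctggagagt
HMGB3 (chrX:150983135-150983334, plus strand): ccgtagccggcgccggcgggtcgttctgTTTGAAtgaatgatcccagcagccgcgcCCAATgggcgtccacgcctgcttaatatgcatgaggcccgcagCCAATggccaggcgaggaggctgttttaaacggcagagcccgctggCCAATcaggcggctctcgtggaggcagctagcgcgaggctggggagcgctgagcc

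The first *HMGB1* window held 3 CCAAT boxes, with first bases 103, 59 and 28 bases before the start site, and the first *HMGB3* window held 3, at 144, 101 and 55 bases before it. Windows with 3 or more, a count chosen after these were seen, made up 3.26% of all 35116 windows. At least 1 CCAAT box was found in 7 of the 14 windows of these genes, against 34.6% of all windows. Letters of the cell cycle homology region were found in 3 of the 14 windows, of *LMNB2*, *HMGB1* and *HMGB3*, against 16.4% of all windows. In that order the matches began 246, 246 and 172 bases before the start site. An E2F-like site was found in 1, that of *LMNA*, against 3.35% of all windows. The first *LMNB1* window and the *LBR* window held none of these letters. The second *LMNB1* window, not printed, held a CCAAT box on the opposite strand, 138 bases before its start site. These matches describe the windows and are no evidence of binding.

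Partners of the lamins did not move as one group. Of 22 genes listed as lamin partners and inner nuclear membrane or nuclear basket proteins, 22 were tested, 5 were higher and 10 were lower, and the median log2 fold change was -0.16. The count of higher genes was 3 without DMSO replicate A and 2 without DMSO replicate C. For this list and those below, the shares over all genes tested were 24.2% higher and 25.3% lower. Among genes at least as abundant as *HMGB3* they were 18.5% higher and 46.5% lower. No list was tested against these shares. The largest rise was that of *SYNE1*, which encodes a nesprin that links the nucleus to the cytoskeleton, from 55.8 ± 1.35 to 142 ± 7.12 CPM (SD, n = 3 each; log2 fold change 1.34, adjusted p = 9.44e-08). *TMEM120A* rose as well, with a log2 fold change of 0.59 (adjusted p = 0.000551). *SUN2*, which encodes an inner membrane partner of nesprins, rose by 0.46 (adjusted p = 0.0263). Its TH588 replicates A and C, at 15.2 and 15.8 CPM, lay just above DMSO replicate A at 14.9 CPM, and TH588 replicate B was at 22.3 CPM. Exons of other genes overlap 24.6% of those of *SUN2*. *NUP50*, *TMPO* and *NUP153* fell most, by 0.97, 0.90 and 0.71 on the log2 scale. *TMPO* encodes the LAP2 proteins, of which LAP2 alpha binds A-type and LAP2 beta binds B-type lamins, and it went from 375 ± 8.87 to 201 ± 26.8 CPM. *EMD*, which encodes emerin, fell by 0.23 (adjusted p = 0.0257), while *SUN1* did not pass the threshold (0.18, adjusted p = 0.0931).

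Of 11 genes for lamin processing and phosphorylation, 1 was higher (2 without TH588 replicate B) and 5 were lower, with a median of -0.34. *ICMT*, which methylates the farnesylated end of lamins, fell from 31.2 ± 0.131 to 15.2 ± 0.452 CPM (SD, n = 3 each; log2 fold change -1.03, adjusted p = 1.38e-06). *ZMPSTE24*, the protease that cuts prelamin A to mature lamin A, fell by 0.97 (SE 0.10, adjusted p = 1.16e-05), so it moved opposite to *LMNA*. *CDK1*, which phosphorylates lamins at mitotic entry and is also on the list of proliferation markers, fell by 1.86. *CASP6*, which cleaves lamin A in apoptosis, rose by 0.57 (adjusted p = 0.00223), at a low level of 4.78 ± 0.438 CPM with DMSO and 7.1 ± 0.195 CPM with TH588.

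Among 18 other HMG-box and HMGN genes, 17 were tested, 5 were higher and 8 were lower (median log2 fold change -0.26). The count of higher genes was 2 without DMSO replicate B, TH588 replicate B or TH588 replicate C, and 3 without DMSO replicate C. *SSRP1*, the HMG-box subunit of the histone chaperone FACT, fell from 436 ± 23.1 to 132 ± 19.9 CPM (SD, n = 3 each; log2 fold change -1.72, adjusted p = 1.72e-07). *UBTF*, the HMG-box factor of ribosomal RNA genes, and *TFAM*, that of mitochondrial DNA, fell by 0.87 and 0.81. The nucleosome-binding *HMGN1* and *HMGN2* fell by 0.75 and 0.78. *TOX4* rose from 43.9 ± 1.01 to 63.2 ± 0.481 CPM (log2 fold change 0.52, adjusted p = 8.8e-05). *HMGN4* rose at a low level, from 2.5 ± 0.456 to 3.77 ± 0.616 CPM (0.61, adjusted p = 0.0159). *HMGB4*, a testis gene, had 0 counts in each of the 6 libraries, which allows at most 3 counts in a library, or 0.105 CPM of all counts in the shallowest.

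Of 16 genes listed for heterochromatin, histone chaperones and partners of *LBR*, 12 were lower and 2 higher (1 without DMSO replicate B), with a median of -0.63. Over all genes tested 25.3% were lower, and 46.5% among those at least as abundant as *HMGB3*. *CBX1*, *CBX3* and *CBX5*, which encode the HP1 proteins, of which HP1 alpha binds the lamin B receptor, fell by 0.47, 0.71 and 0.65. The histone methyltransferase gene *SUV39H1* fell by 1.13, the histone chaperone gene *ASF1B* by 1.12 and the corepressor gene *TRIM28* by 1.03. Exons of other genes overlap 20.3% of those of *SUV39H1*. *SETDB1* and *ATRX*, both also tied to heterochromatin, rose by 0.49 and 0.30.

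Of 10 genes for the extracellular and chromatin partners of HMGB1, 5 could be tested, of which 1 was higher and 2 were lower. *AGER*, which encodes the receptor RAGE, rose from 5.98 ± 0.612 to 13 ± 1.45 CPM (SD, n = 3 each; log2 fold change 1.12, adjusted p = 1.84e-05). *PARP1*, which modifies HMGB1, showed a 2-fold fall, and the export receptor gene *XPO1* fell by 0.70. The Toll-like receptor genes *TLR2* and *TLR4* had 0 counts in all 6 libraries. Around *HMGA2*, 1 of 8 tested genes was higher and 2 were lower. *LIN28B*, whose product blocks let-7 maturation, stood at 23.7 ± 0.634 and 26.1 ± 2.14 CPM (log2 fold change 0.14, adjusted p = 0.211), *DICER1* fell by 0.93, *IGF2BP1* by 0.57, and *ARID3B*, another let-7 target, rose by 0.27 (adjusted p = 0.041). That call was lost without any 1 of DMSO replicates A, B and C or TH588 replicates B and C. MicroRNAs themselves were not measured.

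Secretory genes that often accompany senescence were mixed or barely detected. Of 20 such genes, 11 were tested, of which 5 were higher and 2 were lower, with a median of 0.08. The growth factor gene *AREG* was called higher at 1.57, 1.91 and 1.11 CPM with TH588, against 0.195 CPM in DMSO replicate A and 0 in the other DMSO libraries. *GDF15* rose most on this list, by 5.85 on the log2 scale. *MMP10* and *VEGFA* fell by 0.65 and 0.57. The interleukin genes *IL6* and *CXCL8* had at most 3 counts in any library, and *CCL2* and *CXCL1* had 0 in all 6.

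All 16 proliferation markers fell, and their log2 fold changes lay between -1.94 and -0.51 around a median of -1.11. The largest falls were those of *RRM2* (-1.94), *CDK1* (-1.86) and *MKI67* (-1.59), and exons of other genes overlap 20.2% of those of *RRM2*. The 8 genes that fell among the lamin, *LBR* and HMG genes moved together with these markers, with log2 fold changes between -1.10 and -0.48, and the part of the markers' fall in theirs was not tested.

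**Figure D5:**
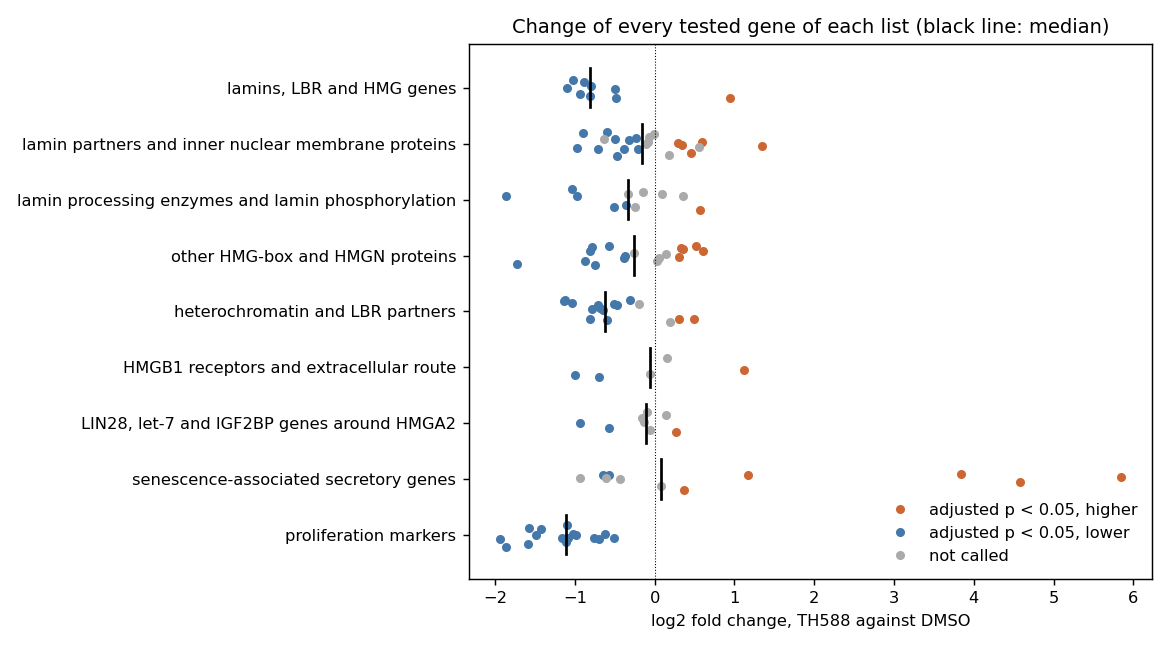
Log2 fold change after TH588 of each tested gene, one row per gene list, in orange where called higher, in blue where called lower and in grey where not called, with the list's median as a black line. The lamin, *LBR* and HMG genes have a median of -0.81, between the heterochromatin genes at -0.63 and the proliferation markers at -1.11, and *LMNA* is the single point of that row above 0.

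The profile of each gene over the 6 libraries was set against 116 listed genes by the Euclidean distance between log2 CPM centred over the libraries, as a description. *LMNB1* lay nearest to *TMPO* (distance 0.06), then *NUP50* (0.13) and *TFAM* (0.20). *LBR* lay nearest to *NUP153* and *HMGN1* (0.18 each) and *ASF1A* (0.19), and *LMNB2* to *UBTF* (0.23), *PARP1* (0.30) and *MCM2* (0.36). *HMGB1* lay nearest to *MCM2* (0.12), *PARP1* (0.13) and *ASF1B* (0.15), *HMGB2* to *PCNA* (0.17), and *HMGB3* to *TMPO* (0.17). *HMGA1* lay nearest to *UBN1* (0.19) and *HMGA2* to *IGF2BP1* (0.21). *LMNA* lay nearest to *KRT18* (0.27), *AGER* (0.39) and *COL1A2* (0.46). All distances use the same 6 libraries and therefore share their depth and scaling.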

How the data were processed

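RNA from 6 A2780 cultures, 3 per treatment, was sequenced. The authors aligned reads to GRCh38 with TopHat and counted them per gene with featureCounts 1.4.6, and deposited raw counts with no normalization. The methods cite UCSC annotation, but rows carry Ensembl identifiers, of which 57754 of 58336 matched a symbol. Strand and multi-mapping settings are not given in the sources used here. The exon overlaps stated ignore strand.

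The counts were fitted with edgeR 4.0.16 in R 4.3.3 (TMM, default filter on low counts, quasi-likelihood test, no covariate, Benjamini-Hochberg adjusted p under 0.05 over 15844 genes). Standard errors are the log2 fold change over the square root of F. The procedure was tested on simulated data with 15528 genes tested. Of 196 genes given a log2 fold change of 1 in size, 153 were called, and so were 10 unchanged genes. Libraries of one treatment were distinct (chi-square over its degrees of freedom 25.2 to 179.9). Per the methods, replicates were biological, and the study itself used DESeq2. Ratios were tested by exact permutation in scipy 1.17.1. Floors cover counting error only.

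Genes and lists were chosen with earlier results of these data known. Named are the 9 genes, up to 3 largest rises and 3 largest falls of each list (adjusted p under 0.05, groups not overlapping), the 3 nearest listed genes of each of the 9, and cell type markers; others named were chosen after their values were seen. Some genes that this rule names are not reported here. Alternatives were scaling by DESeq2's size factors or by library size alone, removal of the 10 most abundant genes, DESeq2 1.42.0, limma-voom (limma 3.58.1), no filter or a minimum of 10 counts per library, leaving out each library, the replicate letter as a block, an adjusted p under 0.01, and pseudogene counts added to the parent gene.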

Additional observations from a re-analysis of the deposited data

How the results depend on the processing

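No gene of the 9 changed direction under any alternative run, and *LMNA* was called higher in each. The number called lower was 6 with library size only and 7 at an adjusted p under 0.01 or without DMSO replicate A, against 8. With library size only the median over all genes was 0.126 rather than 0.019, and higher genes made up 60.4% of those called rather than 48.9%. The falls of *HMGA1* (-0.36) and *HMGA2* (-0.39), which lost their calls there, are to be read relative to that shift, and the cause was not tested. The median was also above 0.1 with DESeq2 (0.138) and with no filter (0.141), both of which tested more genes. Counts within single lists moved by over 1.5 times in 29 cases. With pseudogene counts added, the share of *HMGB2* in the summed HMGB level was 48.1% rather than 54.3% with DMSO and 52.5% rather than 58.1% with TH588. Whether letters pair the libraries was checked by correlating, for each letter, the departures of its DMSO and TH588 library from their treatment means, which gave -0.0706, -0.0831 and 0.00082, so the letters were not taken as pairs. A replicate block left 8 of the 9 genes lower and 1 higher, with 3492 genes higher and 3703 lower over all. TH588 replicate A could miss a gene under 0.105 CPM, but each of the 9 genes had at least 631 counts in it.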
